A study of Mus musculus with 9 samples.

Results

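The proteasome is the large protease that degrades proteins tagged with ubiquitin, and its subunit genes were described here in haematopoietic stem cells (HSC) sorted from mouse bone marrow. The genes were taken from the deposited count table by symbol: every row whose symbol begins with Psm followed by a letter from a to g and a digit, without the immunoproteasome genes Psmb8, Psmb9 and Psmb10. Of 23317 rows, 52 matched. They comprised 46 proteasome genes, 4 pseudogenes and 2 genes that match by symbol and are not counted as proteasome genes here (Psmc3ip and Psme3ip1). Of the 52, 49 passed the filter on low counts. The 46 genes were 8 alpha and 8 beta subunits of the core, 6 ATPases and 3 other subunits of the base, 8 lid subunits, 5 activators, 1 inhibitor and 7 assembly factors.

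The 9 libraries came from wild-type mice in 3 groups of 3: young HSC, old HSC, and old HSC treated with ABC294640, an inhibitor of sphingosine kinase 2. Marrow of mice aged 2 to 4 or 20 to 24 months was used, and the first range is taken here as that of the young group and the second as that of both old groups, since the protocol text does not tie ages to samples. Each library was made from 1500 sorted cells by a low-input protocol for polyadenylated RNA with 12 cycles of PCR. The sources used here give neither the sort markers nor the sex of the mice, and no dose, route or duration of the treatment. No label says that libraries of one group were made from separate mice, and the p-values below therefore reflect only how much these libraries varied, which may be technical.

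As background, the core particle is a barrel of stacked rings in which alpha subunits form the outer rings and gate the entrance, while beta subunits form the inner rings and carry the catalytic sites. The regulatory particle that caps the barrel has a base, whose ATPases unfold the substrate and thread it into the core, and a lid, which removes the ubiquitin chain. Other caps, among them the PA28 family and PA200, open the same gate without ubiquitin recognition, and dedicated chaperones put the particles together. Blood stem cells are known for a low rate of protein synthesis and for a dependence on keeping misfolded proteins scarce.

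The proteasome genes were expressed in every library, and in old HSC they did not move as a block. Against young HSC, 20 of the 49 tested members rose, 7 fell and 22 were not called, in a comparison where 19.6% of all 14227 tested genes rose and 19.8% fell. A gene counts as called where edgeR's quasi-likelihood test, in 1 fit of the 9 libraries, gave it a p under 0.05 after Benjamini-Hochberg adjustment over every gene tested. In 26 members each old library lay above each young one, and in 7 below, against 22.8% and 25.6% of all tested genes. Most members are well expressed, and among genes with a mean of at least 20 CPM (counts scaled to a common library size) the shares were closer: 44.4% of 45 such members rose and 11.1% fell, against 35.9% and 13.6% of the 5918 such genes. The median log2 fold change of the 46 proteasome genes was 0.105, against -0.032 over all tested genes and 0.081 over all those at 20 CPM or more. Base and lid subunits made up 17 of the 49 tested members and 11 of the 20 that rose. Activators made up 5 of the 49 and 3 of the 7 that fell, among them Psme2b, which shares much of its sequence with Psme2. The 3 comparisons below share libraries, since each group stands in 2 of them.

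How much higher the family stood as a whole depended on the scaling of the libraries. The summed level of the 46 genes was 12740 ± 129.6 CPM (SD, n = 3) in young HSC, 13580 ± 210.9 CPM in old HSC and 13690 ± 54.4 CPM in treated old HSC with TMM scaling, a ratio of 1.066 for old over young. With upper-quartile scaling the same ratio was 1.002, and with plain library totals 1.005. The members held between 1.34% and 1.36% of all counts in every one of the 9 libraries. With upper-quartile scaling 13 members rose and 10 fell in old against young HSC, where 12.8% of all tested genes rose and 28.0% fell, and that scaling moved the median of all genes by -0.088 on the log2 scale. Of the 27 members called with TMM scaling, 19 were called in the same direction under each of the other settings that tested them, 13 of them higher and 6 lower in old HSC. Psma3 and Psma6 lost their call with upper-quartile scaling alone. Psmb6, Psmc3, Psmd6, Psmd7, Psmd11 and Psmg2 lost theirs in 2 or more settings.

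**Figure D1:**
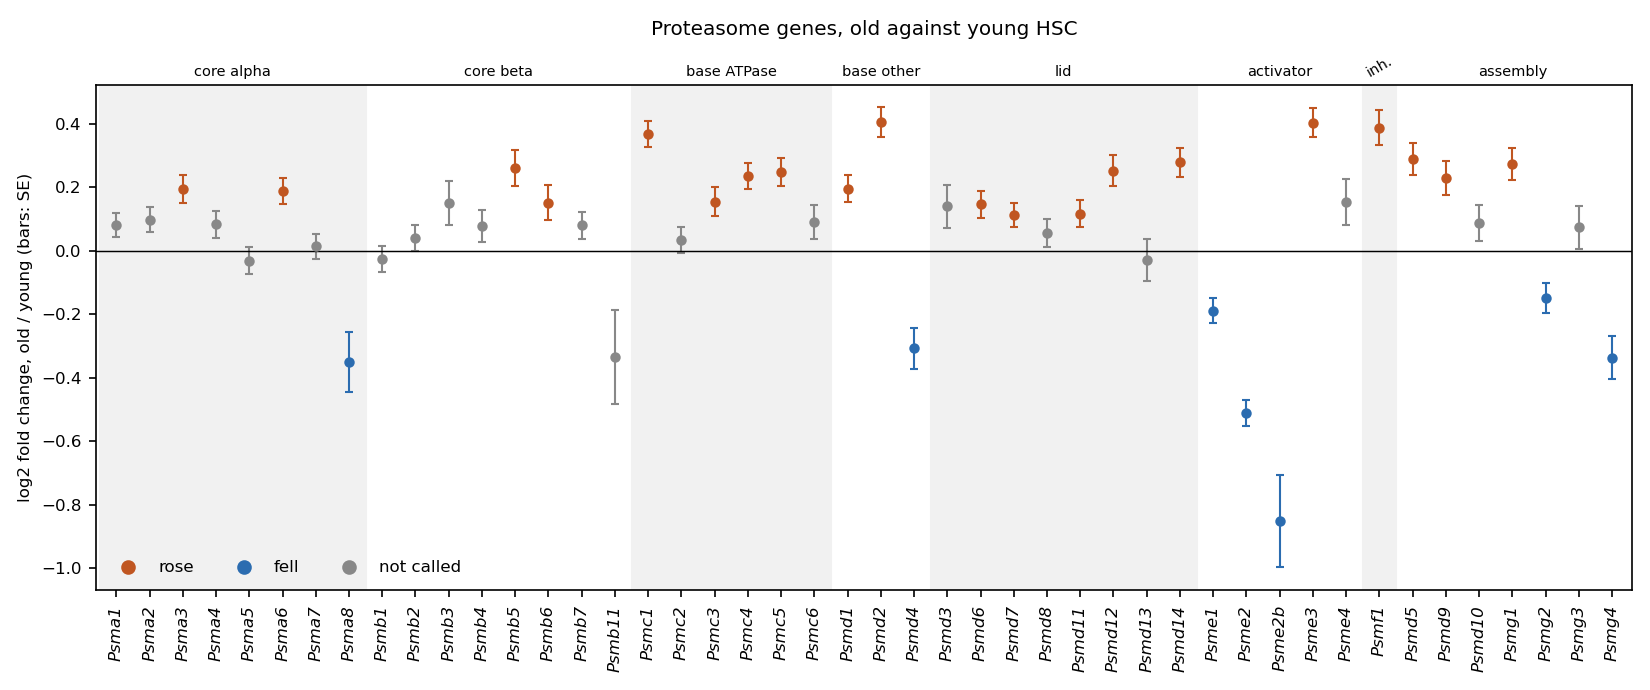
Log2 fold change of each of the 46 proteasome genes in old against young HSC (vertical axis, points with the SE as bars), ordered by role in the proteasome along the horizontal axis. The base and lid genes lie mostly above 0 with Psmd4 below it, and Psme1, Psme2 and Psme2b lie below 0 among the activators while Psme3 lies above.

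**Figure D2:**
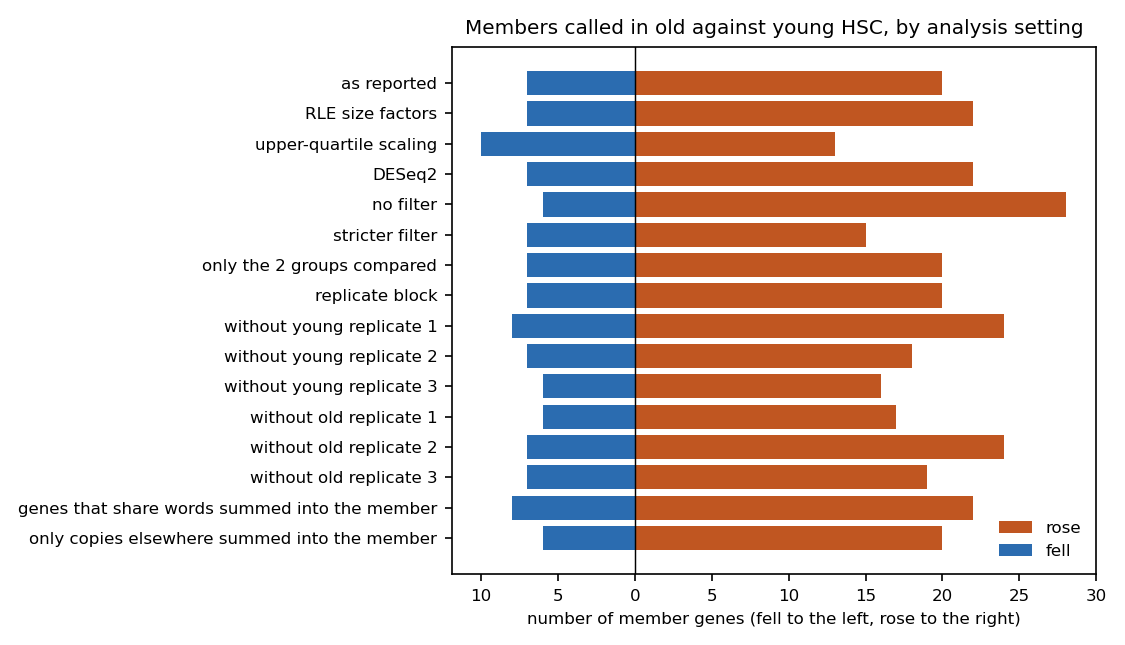
Number of members called higher (right of 0) and lower (left of 0) in old against young HSC under the setting reported and each alternative (rows). The count of members that rose runs from 13 with upper-quartile scaling to 28 with no filter, and the count that fell from 6 to 10.

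Library totals ran from 16663445 to 23254115 counts, and 20158 to 20285 genes had a count in young, 18227 to 19182 in old and 18383 to 18956 in treated libraries. All 14 HSC marker genes were detected. Their summed level was 655.5 to 664.2 CPM in young, 548 to 562.3 CPM in old and 567.9 to 572.8 CPM in treated libraries. Of these genes 2 rose and 7 fell in old HSC, where 19.6% of all tested genes rose and 19.8% fell. The summed levels of markers of other cell types moved with the groups as well. For 16 granulocyte and monocyte genes the summed level was 35870 to 40260 CPM in young, 52960 to 56380 CPM in old and 52810 to 54140 CPM in treated libraries. For 12 B and plasma cell genes the same ranges were 343 to 387, 680.5 to 766 and 644 to 670.4 CPM, and for 11 T and NK cell genes 1335 to 1491, 1741 to 1900 and 1905 to 2074 CPM. For 12 erythroid genes they were 1772 to 1814, 1004 to 1010 and 1106 to 1115 CPM, and for 12 megakaryocyte and platelet genes 691 to 736, 428 to 452 and 507 to 519 CPM. For 11 stromal and endothelial genes they were 51.2 to 60.3, 40.3 to 45.8 and 44.2 to 46.5 CPM. A sum can hide genes that moved the other way. Of 10 tested B and plasma cell genes 3 rose and 2 fell in old HSC. Of 5 tested T and NK cell genes 2 rose and 1 fell, with a median log2 fold change of -0.33, while their summed level was higher. Of the granulocyte and monocyte genes 12 rose and 2 fell, and of 11 tested erythroid genes 1 rose and 9 fell. Of the megakaryocyte and platelet genes 6 fell, of the stromal and endothelial genes 5, and none rose. No gene of these lists was at 0 in every library, and their part in the proteasome changes was not tested. The Y-linked gene Ddx3y had 0.66 to 1.18 CPM in young libraries and 32.3 to 44.7 CPM in the 6 libraries of old mice, so the age of the mice and their apparent sex cannot be told apart. The same holds in bulk libraries for fewer cells of a type and less RNA per cell.

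The base holds the ATPase ring, and 4 of its 6 genes rose in old HSC, while none fell. Among all genes at 20 CPM or more 35.9% rose and 13.6% fell. Psmc1, which encodes the ATPase Rpt2 (ENSMUSG00000021178, chr12:100110154-100123405, plus strand in GRCm38), had 329, 342 and 342 CPM in the young, 426, 445 and 434 CPM in the old and 409.8, 412 and 417 CPM in the treated libraries. All 6 libraries of old mice lay above the 3 young ones, and the treated libraries lay just below the untreated old ones. The log2 fold change of old against young was 0.37 ± 0.041 (SE), adjusted p = 4.49e-07. Psmc1 shares 32.2% of its 31-base words with other genes, mainly Gm9575, which held few counts here. Another, AC110212.1, shares 17.3% and is not a row of the table, so the level of Psmc1 is uncertain to that extent. Psmc4, the ATPase Rpt3, had 269, 265 and 258 CPM in the young, 316, 306 and 309 CPM in the old and 303, 304 and 306 CPM in the treated libraries. Its young libraries were again all below the others, and the log2 fold change was 0.23 ± 0.041 (SE), adjusted p = 1.43e-04. Psmc5, the ATPase Rpt6, had 164, 159 and 162 CPM in the young, 194, 191 and 191 CPM in the old and 198, 188 and 202 CPM in the treated libraries. There was no overlap of young with old libraries, and the log2 fold change was 0.25 ± 0.044 (SE), adjusted p = 1.57e-04. Psmc3, the ATPase Rpt5, had 357, 325 and 318 CPM in the young, 377, 359 and 378 CPM in the old and 380.5, 376 and 368 CPM in the treated libraries. The young and old libraries came close without overlapping, and the log2 fold change of 0.15 ± 0.047 (SE), adjusted p = 0.0132, was not called with upper-quartile scaling (adjusted p = 0.28). Psmc2, the ATPase Rpt1, had 234, 243 and 245 CPM in the young, 249.6, 244 and 245 CPM in the old and 255, 256 and 254 CPM in the treated libraries, which overlap between young and old, and its log2 fold change was 0.03 (adjusted p = 0.568). Psmc6, the ATPase Rpt4, had a log2 fold change of 0.09 (adjusted p = 0.19).

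The other base subunits went in opposite directions. Psmd2, the scaffold subunit Rpn1 (ENSMUSG00000006998, chr16:20651652-20663414, plus strand), had 92.5, 95.8 and 90.8 CPM in the young, 119, 126 and 124 CPM in the old and 122, 123 and 124 CPM in the treated libraries. Every library of an old mouse lay above every young one, and the log2 fold change in old HSC was 0.40 ± 0.047 (SE), adjusted p = 8.49e-07. Psmd1, the other large scaffold Rpn2, had 252, 265 and 252 CPM in the young, 299, 289.9 and 291 CPM in the old and 294, 289.8 and 291 CPM in the treated libraries, with no overlap of young with old libraries. Its log2 fold change was 0.20 ± 0.042 (SE), adjusted p = 9.86e-04. Psmd4, the ubiquitin receptor Rpn10 (ENSMUSG00000005625, chr3:95032694-95042614, minus strand), had 79.5, 68.7 and 69.8 CPM in the young, 60.8, 55.1 and 60.5 CPM in the old and 56.1, 52.4 and 58.1 CPM in the treated libraries. The 3 young libraries were the highest of the 9, and Psmd4 fell by 0.31 ± 0.064 (SE) on the log2 scale in old HSC (adjusted p = 7.81e-04). Within each library, which removes the scaling, the ratio of Psmd4 to Psmd2 counts was 0.859, 0.717 and 0.768 in young HSC, 0.512, 0.436 and 0.488 in old HSC, and 0.461, 0.424 and 0.468 in treated old HSC. The young ratios were all above the others, while the old and treated ratios overlapped. Both genes had been called in these same libraries, in opposite directions, so this separation is not separate support. Psmd2 shares 31.6% of its 31-base words with other genes, mainly Gm5422, which held few counts here, and Psmd4 shares none.

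Of the 8 lid genes 5 rose and none fell in old HSC, against 35.9% and 13.6% of all genes at 20 CPM or more. Psmd14, the lid's deubiquitinating enzyme Rpn11 (ENSMUSG00000026914, chr2:61711694-61800376, plus strand), had 376, 402 and 384 CPM in the young, 467, 481 and 461 CPM in the old and 467, 439.9 and 478 CPM in the treated libraries. The young libraries were the 3 lowest, and the log2 fold change was 0.28 ± 0.044 (SE), adjusted p = 4.84e-05. Psmd12, the scaffold subunit Rpn5, had 154, 169 and 172 CPM in the young, 189, 202 and 198 CPM in the old and 185, 188 and 186 CPM in the treated libraries, with the young libraries lowest again. Its log2 fold change was 0.25 ± 0.048 (SE), adjusted p = 3.57e-04. Psmd6 (Rpn7) had 218, 227 and 218 CPM in the young, 238, 251 and 243 CPM in the old and 237, 236 and 244 CPM in the treated libraries. Psmd7 (Rpn8), the partner of Psmd14 in the enzyme's dimer, had 397, 398 and 392 CPM in the young, 432, 431 and 421 CPM in the old and 431, 433 and 432 CPM in the treated libraries. Both genes were higher in each old library than in any young one by a small margin, with log2 fold changes of 0.14 (adjusted p = 0.0115) and 0.11 (adjusted p = 0.0274), and neither was called with upper-quartile scaling. Psmd11 (Rpn6), which clamps the lid to the core, had a log2 fold change of 0.12 ± 0.042 (SE), adjusted p = 0.0328, and 5 of the other settings did not call it. Psmd3 (Rpn3) had 27.9, 25.9 and 26.6 CPM in the young, 30.6, 28.9 and 29.2 CPM in the old and 30.5, 32.1 and 30.5 CPM in the treated libraries, and its log2 fold change of 0.14 was not called (adjusted p = 0.105). Psmd8 (Rpn12) and Psmd13 (Rpn9) had log2 fold changes of 0.06 and -0.03, neither called. The summed level of the 17 base and lid genes was 1.131 times as high in old as in young HSC with TMM scaling, 1.063 times with upper-quartile scaling and 1.066 times with plain totals.

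Stretches of promoter sequence are shown for base, lid, activator and assembly genes that rose in old HSC and hold the same short motif, the core of the site bound by ETS family factors. The letters searched were CCGGAAG on both strands, in windows from 250 bases before to 50 after each RefSeq start (GRCm38.p6). Of the 52 members 40 matched the RefSeq table by symbol, with 44 promoters, and 17 of these (38.6%) held the motif, against 8.86% of all 32851 promoters of the same length. It was present in 8 of 19 promoters of members that rose, 1 of 6 of members that fell and 8 of 19 of members not called. Those not called include Psmc3ip and Psme3ip1, and Psmc2 with more than 1 promoter. The set of all promoters was not limited to genes expressed here, while most members are well expressed. The stretches lie upstream of the RefSeq start and run 5′ to 3′ on the gene's strand in lower case with the motif, or its reverse complement, in capitals:
Psmd2, chr16:20651572-20651651, plus strand: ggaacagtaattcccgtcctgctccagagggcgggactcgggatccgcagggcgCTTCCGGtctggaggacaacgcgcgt
Psmd6, chr14:14120984-14121063, minus strand: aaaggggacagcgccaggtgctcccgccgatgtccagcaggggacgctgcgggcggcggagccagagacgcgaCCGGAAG
Psme3, chr11:101316093-101316172, plus strand: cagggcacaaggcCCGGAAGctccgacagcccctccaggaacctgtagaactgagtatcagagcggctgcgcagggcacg
Psmg1, chr16:95991001-95991080, minus strand: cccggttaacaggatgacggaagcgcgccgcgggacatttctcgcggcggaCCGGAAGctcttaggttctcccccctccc
A match is a run of letters in this window and not a measured binding site.

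Of the 16 core genes 4 rose and 1 fell in old HSC, a count between the 19.6% of all tested genes and the 35.9% of those at 20 CPM or more that rose. Psmb5, Psmb6 and Psmb7 carry the chymotrypsin-like, caspase-like and trypsin-like sites. Psmb5 (ENSMUSG00000022193, chr14:54614119-54618022, minus strand) had 247, 216 and 218 CPM in the young, 285, 253 and 279 CPM in the old and 282, 297 and 271 CPM in the treated libraries. All old libraries lay above all young ones, the log2 fold change was 0.26 ± 0.057 (SE), adjusted p = 0.00122, and the call held under each setting tried. Its sequence is largely shared, since 71.7% of its 31-base words occur elsewhere and 59.8% in Gm3375, which is not a row of the table, so its level is uncertain. Psmb6 had 532, 449 and 483 CPM in the young, 550.5, 505 and 569.9 CPM in the old and 545, 569 and 537 CPM in the treated libraries. One young library lay among the old ones, and the log2 fold change of 0.15 ± 0.056 (SE), adjusted p = 0.0376, was lost in 6 other settings. Psmb7 had 252, 250 and 246 CPM in the young, 264, 254 and 271 CPM in the old and 267, 265 and 269 CPM in the treated libraries. Its young libraries were the lowest by a few CPM, and the log2 fold change of 0.08 was not called (adjusted p = 0.146).

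The promoters of Psmb5 and Psmb6 are shown because both rose and both hold the core letters of the antioxidant response element, the site through which NRF1 and NRF2 are known to raise proteasome genes. The letters searched were TGACNNNGC on both strands. They occurred in 6 of 44 member promoters (13.6%) and in 12.4% of all promoters, so the share in the members lay near that of all promoters. They were found in 4 of 19 promoters of members that rose, 0 of 6 of members that fell and 2 of 19 of members not called. The 2 stretches have the matching letters in capitals:
Psmb5, chr14:54618023-54618102, minus strand: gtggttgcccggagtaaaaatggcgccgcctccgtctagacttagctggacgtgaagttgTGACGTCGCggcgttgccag
Psmb6, chr11:70525277-70525356, plus strand: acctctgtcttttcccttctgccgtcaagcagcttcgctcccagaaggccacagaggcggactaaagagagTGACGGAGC
The CCAAT box, searched as CCAAT on both strands, was found in 34.1% of member promoters and 37.4% of all promoters.

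Among the other beta subunits of the ring none was called in old against young HSC. Psmb1 had 585, 586 and 589.5 CPM in the young, 590.1, 546 and 592 CPM in the old and 606, 617 and 610.5 CPM in the treated libraries, with a log2 fold change of -0.03 (adjusted p = 0.633). Psmb2 had a log2 fold change of 0.04 and was, per kilobase of exon, the most abundant subunit of the core. Psmb3 had 417, 337 and 360.2 CPM in the young, 437, 362 and 438 CPM in the old and 439, 454 and 423 CPM in the treated libraries. Psmb4, the subunit that closes the ring of beta subunits during assembly, had 314, 282 and 294 CPM in the young, 324, 293 and 323 CPM in the old and 327, 343 and 328 CPM in the treated libraries. In both genes the young and old ranges overlapped, with adjusted p = 0.0961 and 0.228. Psmb11, the catalytic form of the thymus cortex, was low, with 9.95, 12.8 and 11.8 CPM in the young, 7.12, 9.38 and 10.8 CPM in the old and 9.75, 7.27 and 6.83 CPM in the treated libraries. Its young and old ranges overlapped, and the log2 fold change of -0.34 was not called (adjusted p = 0.0771).

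Of the alpha subunits Psma3 and Psma6 rose and Psma8 fell. Psma3 had 789, 832 and 812 CPM in the young, 914, 948 and 920.4 CPM in the old and 878, 798 and 901 CPM in the treated libraries. Old libraries exceeded all young ones, while a treated library fell among the young ones. The log2 fold change of old against young was 0.19 ± 0.045 (SE), adjusted p = 0.00203. Psma6 had 493, 529 and 519 CPM in the young, 592, 570.5 and 591 CPM in the old and 597, 581 and 590.1 CPM in the treated libraries, with no overlap of young with old. Its log2 fold change was 0.19 ± 0.041 (SE), adjusted p = 0.00121. Psma8, the alpha form of testis, was the least abundant alpha gene, with 18, 18.9 and 19.2 CPM in the young, 13.5, 15.7 and 14.6 CPM in the old and 16.1, 13.6 and 17.2 CPM in the treated libraries. Its young libraries were the 3 highest, and it fell by 0.35 ± 0.095 (SE) on the log2 scale in old HSC (adjusted p = 0.006). Psma2 had 597, 583 and 583 CPM in the young, 644, 602 and 639.7 CPM in the old and 664, 663 and 661 CPM in the treated libraries, and its log2 fold change of 0.10 was not called (adjusted p = 0.0595). Psma1, Psma4, Psma5 and Psma7 had log2 fold changes from -0.03 (Psma5) to 0.08 (Psma4), none of them called. Over the 14 core genes without Psma8 and Psmb11, 4 rose, none fell and the median log2 fold change was 0.081. The summed core level was 1.062 times as high in old as in young HSC with TMM scaling, 0.999 times with upper-quartile scaling and 1.002 times with plain totals.

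Levels per length also differed within the particle. In young HSC the 14 core genes ran from 72.8 CPM per kilobase of exon (Psmb7) to 609.6 CPM per kilobase (Psmb2), with a median of 208.9. The 17 base and lid genes ran from 5.4 CPM per kilobase (Psmd3) to 175.1 CPM per kilobase (Psmd7), with a median of 70.8. In old HSC the top of the base and lid was Psmc1, at 225 CPM per kilobase, and Psmd3 was again lowest, at 5.95. Lengths are the union of annotated exons, so a gene with long, rarely used exons is placed too low.

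The activators ranged from a log2 fold change of -0.85 (Psme2b) to 0.40 (Psme3) in old against young HSC. PA28 alpha and beta, encoded by Psme1 and Psme2, form the interferon-inducible cap that works with the immunoproteasome, and PA28 gamma, encoded by Psme3, forms a nuclear cap. Psme1 (ENSMUSG00000022216, chr14:55578123-55581529, plus strand) had 438, 445 and 429.7 CPM in the young, 388, 385 and 379 CPM in the old and 384, 381 and 385 CPM in the treated libraries. No young library overlapped the others, and Psme1 fell by 0.19 ± 0.039 (SE) on the log2 scale in old HSC (adjusted p = 7.68e-04). Psme2 (ENSMUSG00000079197, chr14:55587441-55591113, minus strand) had 478, 460 and 463 CPM in the young, 338, 318 and 327 CPM in the old and 346, 350.1 and 338 CPM in the treated libraries. The gap between young and old was many times the spread within a group, and Psme2 fell by 0.51 ± 0.042 (SE) on the log2 scale (adjusted p = 4.89e-09). Psme2b, a single-exon copy of Psme2, had 10.2, 9.76 and 11 CPM in the young, 7.18, 5.17 and 4.84 CPM in the old and 5.05, 6.47 and 6.88 CPM in the treated libraries, again with the young libraries highest. It fell by 0.85 ± 0.14 (SE) on the log2 scale (adjusted p = 9.79e-05), and since 76.5% of its 31-base words are also in Psme2, reads of the 2 genes may not be told apart. Psme3 (ENSMUSG00000078652, chr11:101316213-101323537, plus strand) had 142, 153 and 146 CPM in the young, 196, 198 and 189 CPM in the old and 176, 183 and 184 CPM in the treated libraries. Here the young libraries were the 3 lowest and the treated ones lay between, and the log2 fold change of old against young was 0.40 ± 0.046 (SE), adjusted p = 6.10e-07. Psme4, the PA200 activator, had a log2 fold change of 0.15 and was not called (adjusted p = 0.102).

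Counted within each library, the 2 PA28 alpha and beta genes together gave 6.44, 5.92 and 6.09 counts per count of Psme3 in young HSC. The ratio was 3.7, 3.54 and 3.74 in old HSC and 4.15, 4.00 and 3.94 in treated old HSC. The young ratios lay far above both other groups, and each treated ratio lay above each old one. The ratio itself was not tested, and it joins genes called in opposite directions in these libraries, so it is not separate support. With edgeR's quasi-likelihood test Psme1, Psme2 and Psme3 were not called between treated and untreated old HSC (adjusted p = 0.995, 0.665 and 0.465). Of the 5 activators 1 rose and 3 fell in old HSC, where 19.6% of all tested genes rose and 19.8% fell. The summed level of the activators in old HSC was 0.865 times that in young HSC with TMM scaling and 0.814 times with upper-quartile scaling.

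**Figure D3:**
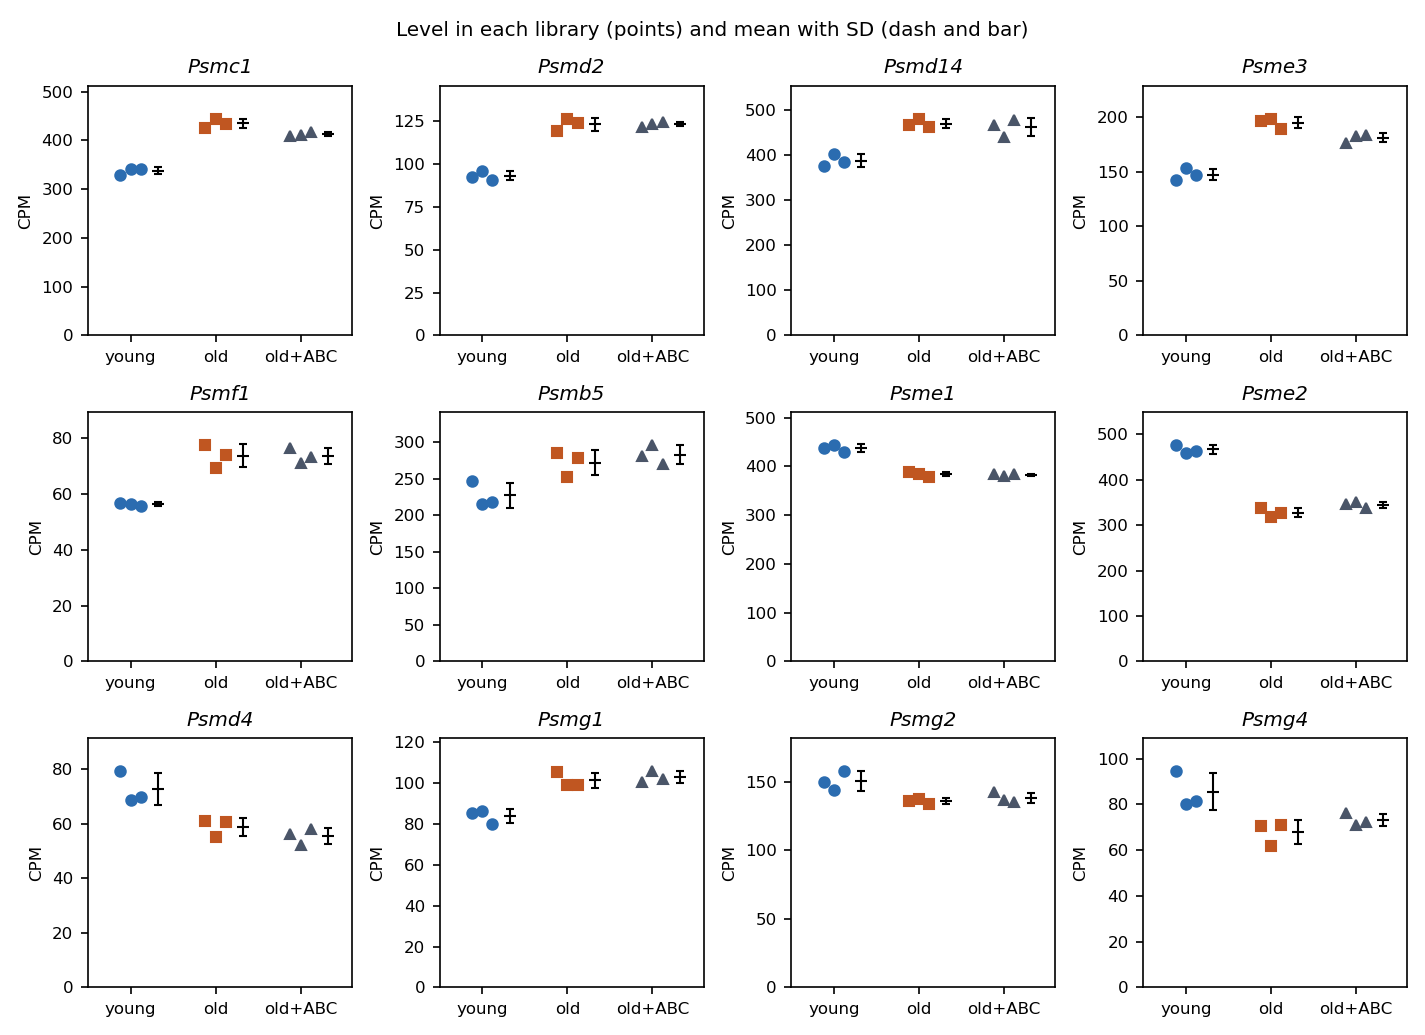
Level in each library in CPM scaled by TMM (vertical axes, from 0) for 12 proteasome genes in young, old and treated old HSC, with the group mean and SD beside the points. Psmc1, Psmd2, Psmd14, Psme3, Psmf1, Psmb5 and Psmg1 are lowest in young HSC, and Psme1, Psme2, Psmd4, Psmg2 and Psmg4 are highest there.

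The inhibitor Psmf1 (PI31, ENSMUSG00000032869, chr2:151715812-151744186, minus strand), which binds the core particle, had 57, 56.4 and 55.6 CPM in the young, 77.8, 69.4 and 74.1 CPM in the old and 76.5, 71 and 73.4 CPM in the treated libraries. The 3 young libraries were nearly equal and lay below all others. Its log2 fold change in old HSC was 0.39 ± 0.055 (SE), adjusted p = 1.17e-05, and the call held under each setting tried.

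Assembly factors split, with 3 that rose, 2 that fell and 2 not called in old HSC. The shares among all genes at 20 CPM or more were 35.9% that rose and 13.6% that fell. Psmg1 and Psmg2 encode the partners of one chaperone pair (PAC1 and PAC2) for the alpha ring. Psmg1 had 85.5, 86.3 and 80 CPM in the young, 106, 99.3 and 99.2 CPM in the old and 101, 106 and 102 CPM in the treated libraries, with every young library below the rest. It had a log2 fold change of 0.27 ± 0.051 (SE), adjusted p = 2.50e-04. Psmg2 had 149, 144 and 158 CPM in the young, 136, 138 and 134 CPM in the old and 142, 136 and 135 CPM in the treated libraries, with every young library above the rest. It fell by 0.15 ± 0.047 (SE) on the log2 scale (adjusted p = 0.0172), a call that 4 of the other settings did not make. Within each library the ratio of Psmg1 to Psmg2 counts was 0.572, 0.5995 and 0.506 in young HSC, 0.776, 0.722 and 0.743 in old HSC, and 0.708, 0.778 and 0.754 in treated old HSC. The young ratios lay below all others, and the old and treated ratios overlapped. This ratio too joins genes called in opposite directions.

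Psmg3 and Psmg4 encode the second alpha-ring pair (PAC3 and PAC4). Psmg4 had 94.8, 80.4 and 81.5 CPM in the young, 70.8, 62 and 70.9 CPM in the old and 76.2, 70.9 and 72.5 CPM in the treated libraries, and the young libraries were the highest. It fell by 0.34 ± 0.067 (SE) on the log2 scale in old HSC (adjusted p = 4.59e-04), whereas Psmg3 had a log2 fold change of 0.07 (adjusted p = 0.408). The chaperones of the ATPase ring are Psmd5, Psmd9 and Psmd10. Psmd5 (S5b) had 105, 112 and 107 CPM in the young, 127, 128 and 141 CPM in the old and 125, 126 and 125 CPM in the treated libraries. Psmd9 (p27) had 51.9, 52.1 and 49.2 CPM in the young, 58, 59.4 and 62.2 CPM in the old and 60.4, 59.7 and 60.4 CPM in the treated libraries. In both genes all young libraries were the lowest, and the log2 fold changes were 0.29 ± 0.051 (SE), adjusted p = 1.43e-04 for Psmd5 and 0.23 ± 0.054 (SE), adjusted p = 0.00212 for Psmd9. Psmd9 shares 26.6% of its words with other genes, mainly the lincRNA Gm26745 on the opposite strand, and no source used here says whether counting kept strands apart. Psmd10 (gankyrin) had 70.8, 67.8 and 70.8 CPM in the young, 74.5, 73.6 and 74.1 CPM in the old and 88.1, 76.1 and 78.3 CPM in the treated libraries. Its old libraries lay above the young ones by a few CPM, and the log2 fold change of 0.09 was not called (adjusted p = 0.233).

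The promoter of Psmd4 is shown because it fell while most of the base rose, and because it holds 3 of the motifs searched. The interferon-stimulated response element core, searched as GAAA, 2 bases of any kind and GAAA on both strands, occurred in 3.44% of all promoters and in 5 of 44 member promoters (11.4%). It was in 3 of the 6 promoters of members that fell (Psmd4, Psme1 and Psmg4), 1 of 19 of those that rose and 1 of 19 of those not called. In the stretch below the capitals mark, in order, the ETS core, the reverse complement of the CCAAT box and the reverse complement of the interferon-stimulated element core:
Psmd4, chr3:95042665-95042744, minus strand: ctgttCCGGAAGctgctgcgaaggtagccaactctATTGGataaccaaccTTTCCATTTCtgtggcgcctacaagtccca
These counts are small, and the matches in Psme1 and Psmg4 lie after the start.

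The immunoproteasome subunits, which replace the catalytic beta subunits in immune cells, lie outside the rule and are given for comparison. Psmb8, which takes the place of Psmb5, had 992, 856 and 881 CPM in the young, 684, 618 and 653 CPM in the old and 671, 694 and 661 CPM in the treated libraries, and it fell by 0.48 ± 0.052 (SE) on the log2 scale in old HSC (adjusted p = 2.75e-07). Within each library Psmb8 had 4.01, 3.96 and 4.04 counts per count of Psmb5 in young HSC, 2.4, 2.45 and 2.34 in old HSC, and 2.38, 2.34 and 2.44 in treated old HSC. Psmb9, which replaces Psmb6, fell by 0.69 ± 0.048 (adjusted p = 3.87e-10) and Psmb10, which replaces Psmb7, fell by 0.58 ± 0.064 (adjusted p = 4.49e-07), both on the log2 scale with the SE. All 3 immunoproteasome genes fell in old HSC, as did Psme1 and Psme2. Over all tested genes 19.8% fell, and among those at 20 CPM or more 13.6% fell.

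**Figure D4:**
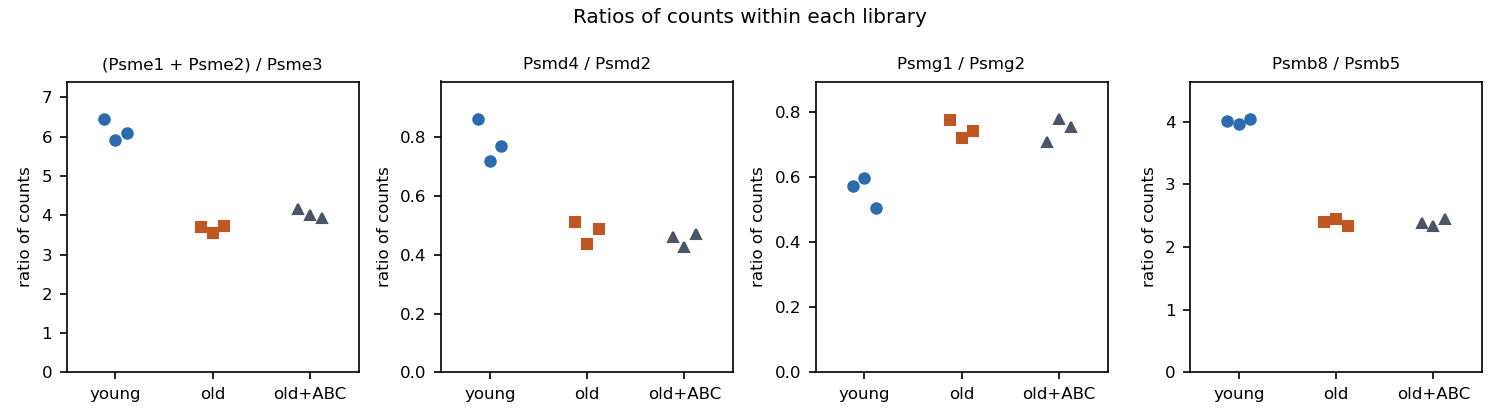
Ratios of counts within each library (vertical axes, from 0), which do not depend on how libraries are scaled, for 4 pairs of genes in young, old and treated old HSC. The young libraries lie apart from the 6 libraries of old mice in each panel. Each ratio joins genes called in opposite directions in these same libraries, so the separation is not separate support for those calls.

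Treatment of old HSC with ABC294640 gave no called gene among the members of the rule. Sem1, a lid subunit outside the rule, was called and is described below. Against untreated old HSC, 0 of the 49 tested members rose and 0 fell with edgeR's quasi-likelihood test, where 0.766% of all tested genes rose and 0.429% fell, shares so low that 0 of 49 says little about the members. DESeq2 also called 0 and 0. With edgeR's test 4 of the 49 tested members had an unadjusted p under 0.05, as had 1256 of all 14227 tested genes. The smallest adjusted p was 0.348. In 7 members each treated library lay above each untreated old one, and in 5 below, where 8.34% and 7.13% of all genes did so. The median log2 fold change of the 46 genes was 0.012, the point estimates ran from -0.20 (Psmb11) to 0.13 (Psmd10), and all 95% intervals lay between -0.53 and 0.44. For the 17 base and lid genes of the rule the intervals lay between -0.22 and 0.21. Each interval is for a single gene and rests on the spread between these libraries, which may be technical.

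The 4 members with an unadjusted p under 0.05 moved in both directions. Psma5, with 530, 521 and 532 CPM in the young, 534, 489.5 and 526 CPM in the old and 552, 564 and 558 CPM in the treated libraries, had a log2 fold change of 0.11 in treated against untreated old HSC (95% interval 0.02 to 0.20, adjusted p = 0.348), and all 3 treated libraries lay above the old ones. In Psma3 the value was -0.11 (95% interval -0.20 to -0.02, adjusted p = 0.428). In Psme3 it was -0.11 (95% interval -0.20 to -0.01, adjusted p = 0.465). In Psmd10 it was 0.13 (95% interval 0.01 to 0.24, adjusted p = 0.507). Psma5 shares 61% of its words with other genes, among them the pseudogene row Psma5-ps, which held 2 to 11 counts per library. Another, Gm12989, shares 36.7% and is not a row of the table.

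**Figure D5:**
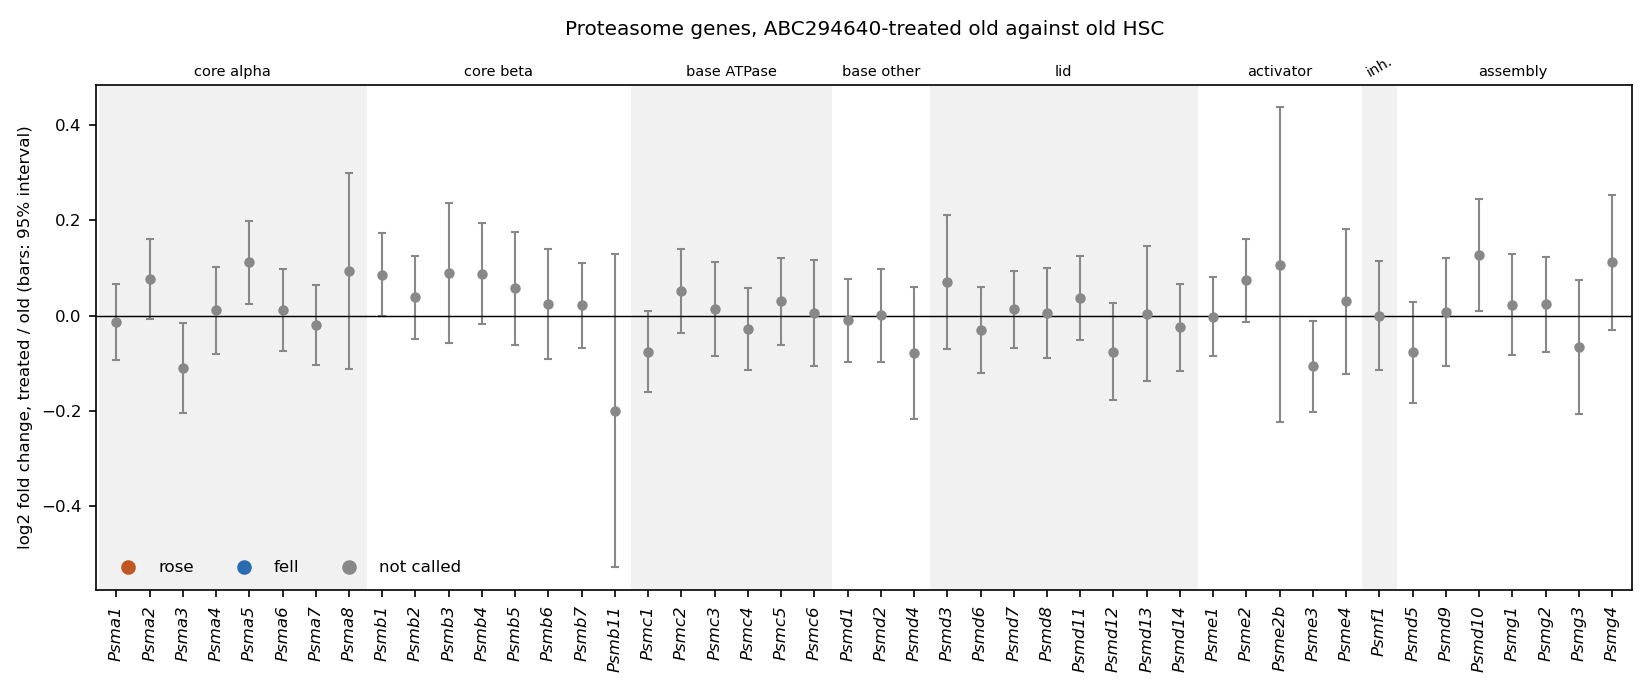
Log2 fold change of each of the 46 proteasome genes in ABC294640-treated against untreated old HSC (vertical axis, points with 95% intervals), ordered by role. Every point is grey because no gene was called, and most intervals include 0.

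Against young HSC, the treated old libraries gave 24 members that rose, 8 that fell and 17 not called, where 19.1% of all genes rose and 18.5% fell. In 32 members each treated library lay above each young one and in 8 below, against 23.7% and 24.7% of all genes. This comparison shares the young libraries with that of untreated old HSC, so the values are given side by side. Psmd2 had a log2 fold change of 0.40 in treated and 0.40 in untreated old HSC, Psmf1 0.39 and 0.39, and Psme2 -0.44 and -0.51. For Psmc1 the pair was 0.29 and 0.37, and for Psme3 0.30 and 0.40. Psma2, Psmb3, Psmb4, Psmd3 and Psmd10 were called higher in treated old against young HSC (log2 fold changes 0.17, 0.24, 0.17, 0.21 and 0.21) and Psmb11 lower (-0.53), while none of them was called for untreated old HSC. Psma3 was called for untreated old HSC and not for treated (log2 fold change 0.08, adjusted p = 0.157). No member was called between treated and untreated old HSC, so these calls are not shown to differ between the 2 groups. Of the 32 calls, 14 held under each other setting that tested them, and with upper-quartile scaling 10 members rose and 8 fell, where 11.5% of all tested genes rose and 26.8% fell.

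The genes that match by symbol and are not counted as proteasome genes were not called. Psmc3ip, a recombination factor named for its binding to Psmc3, had 77.4, 77.4 and 74.2 CPM in the young, 75.9, 77.4 and 76.5 CPM in the old and 83, 81.9 and 76.5 CPM in the treated libraries. Psme3ip1 had 68.3, 69 and 65.7 CPM in the young, 67.1, 64.1 and 68.2 CPM in the old and 70.1, 67.2 and 62.1 CPM in the treated libraries. That held in each of the 3 comparisons, and the young and old ranges overlapped for both. When the overlapping gene Mlx, which shares 19% of its words with Psmc3ip, was summed into it, the sum rose in old HSC with a log2 fold change of 0.213 (adjusted p = 0.00112). Of the 4 pseudogenes only Psmb7-ps2 passed the filter, with 7 to 18 counts per library and no call.

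Partners of the proteasome outside the rule were described from lists. Of 12 other proteasome subunits and partners 4 rose and 1 fell in old HSC, close to the 35.9% and 13.6% of all genes at 20 CPM or more that did so. Over all tested genes the shares were 19.6% and 19.8%. Usp14, the deubiquitinase that docks on the base, had 153, 169 and 163 CPM in the young, 231, 242 and 234 CPM in the old and 232, 223 and 242 CPM in the treated libraries, with a log2 fold change of 0.54 ± 0.048 (SE), adjusted p = 1.90e-08. Zfand5, a known proteasome-activating protein, had 89.9, 95.5 and 96.2 CPM in the young, 129.8, 132 and 137 CPM in the old and 116, 115 and 120 CPM in the treated libraries, with a log2 fold change of 0.50 ± 0.048 (SE), adjusted p = 4.80e-08. In both genes the young libraries were far below the rest. Adrm1, the ubiquitin receptor Rpn13, also rose (0.21 ± 0.053 (SE), adjusted p = 0.00362). Pomp, the chaperone that dimerizes the core, had 362, 349 and 359.6 CPM in the young, 328, 309 and 319 CPM in the old and 344, 354 and 341 CPM in the treated libraries, and it fell by 0.16 ± 0.042 (SE) on the log2 scale in old HSC (adjusted p = 0.00419). Sem1, the smallest lid subunit, had 566, 559.6 and 583 CPM in the young, 606, 548 and 642 CPM in the old and 694, 716 and 678 CPM in the treated libraries, with the treated libraries above all others. It was the one gene of this list called between treated and untreated old HSC, with a log2 fold change of 0.22 ± 0.049 (SE), adjusted p = 0.0306. In that comparison 0.766% of all tested genes (109) rose, and 17 rose when treated replicate 2 was left out.

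Of 12 regulators of the NRF1 and NRF2 pathway, which raises proteasome gene expression when the proteasome falls short or the cell is under oxidative stress, 4 rose and 1 fell in old HSC. These counts too are close to the shares of 35.9% and 13.6% among all genes at 20 CPM or more. The list also holds genes below that level, and over all tested genes 19.6% rose and 19.8% fell. Nfe2l1, which encodes NRF1, had 10.9, 10.8 and 11 CPM in the young, 12.1, 9.14 and 8.94 CPM in the old and 9.63, 9.18 and 9.71 CPM in the treated libraries, with overlapping ranges, and was not called (adjusted p = 0.442). Nfe2l2, which encodes NRF2, had 103, 108 and 113 CPM in the young, 127, 128 and 128 CPM in the old and 126, 119.6 and 128 CPM in the treated libraries, and it rose (0.24 ± 0.049 (SE), adjusted p = 5.77e-04). Its DNA-binding partners Mafg and Maff rose by 0.36 and 0.69 on the log2 scale (adjusted p = 2.17e-04 and 3.37e-04). Syvn1, the ubiquitin ligase of the endoplasmic reticulum, rose by 0.28 (adjusted p = 0.00946), and Keap1, the adaptor that targets NRF2 for degradation, fell by 0.40 on the log2 scale (adjusted p = 0.0105).

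Genes that feed the proteasome, and genes of other large complexes, were counted in the same way. Of 14 genes of p97 and its shuttle factors, which extract and deliver tagged proteins, 6 rose and none fell in old HSC. Vcp, which encodes p97 itself, rose (0.18 ± 0.043 (SE), adjusted p = 0.00222), as did Ufd1 (0.31 ± 0.051 (SE), adjusted p = 8.71e-05), Faf1 (0.35), Sqstm1 (0.36) and Ubqln1 (0.25). Rad23b, a shuttle factor, had 52.5, 52.6 and 50.8 CPM in the young, 55.1, 56.1 and 53.2 CPM in the old and 41.8, 44.3 and 39.4 CPM in the treated libraries. Its treated libraries were the 3 lowest, and it fell by 0.39 on the log2 scale in treated against untreated old HSC (adjusted p = 0.0013), and it was chosen for mention after its value was seen. Of 8 ubiquitin and E1 genes Uba3 rose and Rps27a, a fusion of ubiquitin with a ribosomal protein, fell. In treated against untreated old HSC, where 0.766% of all tested genes rose, Rps27a was the one gene of that list called. It rose there (0.19 ± 0.044 (SE), adjusted p = 0.0336). In 8 CCT chaperonin genes, a complex that folds actin and tubulin, 7 rose and none fell, led by Cct6a (0.41 ± 0.044 (SE), adjusted p = 2.34e-07) and Cct8 (0.35 ± 0.041 (SE), adjusted p = 1.28e-06). In 17 subunits of the COP9 signalosome and eIF3, which share the lid's architecture, 8 rose and none fell, led by Cops8 (0.36 ± 0.05 (SE), adjusted p = 9.23e-06). These shares stand against 19.6% of all genes that rose, and 35.9% of those at 20 CPM or more.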

How the data were processed

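The 9 libraries of polyadenylated RNA were analysed. The deposited table holds estimated counts of reads per gene (expected counts, 56.0% of non-zero values whole), which were rounded. Per the submitters' processing notes, the authors used edgeR 3.24.3, HTSeq 0.10.0, the aligner STAR 2.6.1d, Trim Galore 0.6.2 and build mm10, with no role stated. No source used here names the step that gave fractions or any use of strand. Groups came from the sample labels.

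Tests used edgeR 4.0.16 (R 4.3.3, filterByExpr, TMM, quasi-likelihood test, group as the only term, 14227 genes, adjusted p under 0.05) after the code was checked on simulated data. Alternatives were RLE and upper-quartile scaling, DESeq2 1.42.0, no filter, a stricter filter (5 CPM in 3 libraries), only the groups compared, a replicate block, leaving out each library, and, added after seeing the data, summing genes that share sequence into the member, either all of them or only copies elsewhere in the genome. Positions and 31-base shared words are from GENCODE release 21 (GRCm38), which held 23289 of 23317 rows, and promoters from RefSeq (GRCm38.p6). CPM values use library sizes scaled by TMM, and reads without molecular identifiers limit precision beyond the counting error. The members, gene lists and naming rule were chosen with earlier results of these data known. The rule named the catalytic subunits, in each role the 4 smallest p in old against young HSC and the 2 smallest in treated against old HSC, every member that fell, the partners by symbol, and in each pathway list the 4 smallest p. Python 3.11.15 was used for the other steps.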

Additional observations from a re-analysis of the deposited data

How the results depend on the processing

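In old against young HSC the members that rose numbered 13 with upper-quartile scaling (all genes 1823, and 3988 that fell), 22 with RLE size factors or DESeq2, 28 with no filter, 15 with the stricter filter and 16 to 24 when 1 library was left out, and those that fell 6 to 8 when 1 library was left out. All genes that rose there ran from 2522 to 2924 and those that fell from 2155 to 2636 without 1 library. In treated against untreated old HSC the members called were 0 and 0 in every setting run. All genes called numbered 219 and 114 with no filter, 164 and 96 in the fit of only the 2 groups compared, and, without 1 library, from 17 (without treated replicate 2) to 121 that rose and from 31 to 55 that fell. The count that rose was 52 without old replicate 1, 40 without old replicate 2 and 31 without treated replicate 1. In treated old against young HSC the members that rose numbered 10 with upper-quartile scaling, 15 with the stricter filter and 21 to 24 without 1 library, and those that fell 5 (without treated replicate 2) to 7. All genes that rose numbered 1633 and those that fell 3809 with upper-quartile scaling, and those that fell 1732 with the stricter filter, which tests fewer genes. Each gene that shares sequence with a member was also summed into it, overlapping genes and the parents of pseudogenes included. That gave 22 and 8 members in old against young and 26 and 8 in treated against young HSC. Calls were added for Psmc3ip (summed with Mlx) and, in old against young HSC, Psmd13 (with Sirt3). In each comparison the other added call was for a pseudogene row that the main fit did not test and that here held its parent's counts. Summing only copies elsewhere in the genome gave 20 and 6, and 24 and 7, with Psme2b merged into Psme2. No result changed direction where a call was involved, and the causes were not tested beyond these settings. Over the 3 comparisons the 9 correlations of deviations between libraries of the same number ran from -0.081 to 0.132, against -0.096 to 0.072 between different numbers, and the numbers were not taken to pair them. Between young and old HSC the same-number values (0.063, 0.132 and 0.064) exceeded all values between different numbers (at most 0.035), a hint from the data and not from the design. Both other comparisons gave negative same-number values. With the replicate block the members that rose and fell were 20 and 7, 0 and 0, and 25 and 7 in the 3 comparisons. Depth limits Psme2b, Psmb11, Psma8 and the pseudogenes most, whose levels are the lowest among the members.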
